A study of Mus musculus with 8 samples.

Results

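In 1706 of the 6147 genes listed in a table of brain transcript ends, wild-type mice used an upstream exon and the last exon side by side. These genes, called mixed genes here, were chosen by a pair of conditions. Reads in the upstream exon and in the last exon together averaged 20 or more over the 8 libraries, which held for 6001 genes. The pooled wild-type share of reads in the last exon was from 50% to below 90%. Another 721 genes had a share below 50% and ended mainly in the upstream exon, and 3574 genes had a share of 90% or more. The wild-type shares chose the mixed genes, so these shares, and any comparison of mutant with wild-type shares, are a description of the chosen genes.

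Most genes carry more than 1 place where the transcript can be cut and given a poly(A) tail. When the cut falls in an upstream exon or an alternative last exon, the transcript loses the exons behind it, so the protein can end differently, as in receptors that lose their membrane anchor. The cleavage stimulation factor reads U- and GU-rich sequence behind the cut site through the RNA recognition motif of its subunit CSTF2, which is encoded on the X chromosome. The balance of such ends in brain differs between cell types and with maturation.

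The study compared total brain of mice with the Cstf2 D50A allele, a change of residue 50 in that motif, with brain of wild-type littermates, all on C57BL/6NCrl and all taken at postnatal day 50 without any treatment. The strain was backcrossed and then bred only within the colony. There were 3 wild-type and 5 mutant libraries, and each library came from a different animal. Libraries primed on the poly(A) tail, so a read marks a transcript end. The labels give neither the sex of the animals nor a batch.

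The table held from 7075383 to 13145966 reads per library, and the mixed genes took from 10.4% of them in wild type 1 to 13.4% in mutant 1. Levels of marker genes set apart mutants 1 to 4 from the other 4 libraries. The mean level of the cerebellar granule cell list, with 17 of its 27 genes measured, was 7.27 to 7.39 in log2 CPM (reads relative to library size, on a log2 scale) in the wild types, 5.98 to 6.02 in mutants 1 to 4, and 7.37 in mutant 5. The defining granule cell gene Cbln3 was at 8.18 to 8.45 log2 CPM in the wild types and at 8.09 in mutant 5, but at 0.30 to 1.17 in mutants 1 to 4. The Purkinje and other cerebellar list, with 15 of 25 genes measured, was at 6.07 to 6.33 in the wild types, 5.45 to 5.60 in mutants 1 to 4 and 6.23 in mutant 5. A list of 19 measured forebrain excitatory neuron genes was lowest in wild type 1, at 6.16, against 6.70 and 6.80 in the other wild types, 6.96 to 7.01 in mutants 1 to 4 and 6.75 in mutant 5. The labels call every sample total brain and do not say whether the cerebellum was included in each. With Cbln3 near 0 in mutants 1 to 4, brains of unlike extent cannot be told apart from the genotype among these 4 and the wild types. In such tissue, fewer cells of a type and less RNA per cell cannot be told apart either. Results are therefore given with mutant 5 and without it.

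Among the mixed genes, the pooled wild-type share in the last exon had a median of 79.3% and quartiles of 68.4% and 85.9%. There were 213 genes from 50% to below 60%, 266 from 60%, 408 from 70% and 819 from 80% to below 90%. Just inside the lower limit lay Ccdc9 (50.12%), the potassium channel gene Kcnk2 (50.14%) and Sfi1 (50.18%), and just outside it lay Myef2 (49.96%), Trmt11 (49.86%) and Ulk4 (49.76%). At the upper limit, Golga4 (89.98%), Unc80 (89.97%) and Hyal1 (89.96%) were in, while Eml4 (90%), Fam129a (90%) and Patz1 (90.005%) were out.

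The mixed genes averaged a median of 219 reads per library, with quartiles of 81.2 and 548, against 459 over all 6001 genes tested. Their gene length had a median of 52854 bases, against 35453.5 bases in the genes ending mainly in the last exon and 56818 bases in those ending mainly upstream. RefSeq listed a median of 5 transcripts for a mixed gene, against 4 and 6 in these other classes. These annotations were matched by symbol for 99.4% of the mixed genes. Of the mixed genes, 1086 were also listed in a second table that splits the reads of the last exon into a proximal and a distal site.

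The 5 mixed genes with the most reads were Npcd, the ribosomal protein gene Rps12, the synaptic vesicle calcium sensor gene Syt1, Ttc3 and the chloride channel gene Ttyh1. Rps12, with a mean of 32550 reads, had the same balance in every brain, from 72.3% to 74.1% in the last exon over the 8 libraries; processed copies of this gene make its counts uncertain. Ttc3 also varied little, from 82.6% to 85.4%. Syt1 had 82.2%, 80.9% and 91.8% of its reads in the last exon in the wild types, and 93.8%, 91.8%, 86.4%, 94.4% and 81.4% in mutants 1 to 5. For Syt1 the spread within a genotype was thus larger than the difference of the means, 85% ± 5.96 (SD, n = 3) against 89.6% ± 5.54 (SD, n = 5). Npcd, with 92838 reads, lay at 38.9% in wild type 1, at 54.4% and 52.9% in the other wild types and at 54.9% to 59.3% in the mutants, and its locus overlaps neighbouring genes, so its counts are uncertain.

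The spread between animals of 1 genotype was wide. The SD of the wild-type shares had a median of 5.26 percentage points and exceeded 10 points in 318 mixed genes. The range over the 8 libraries was over 20 points in 625 mixed genes and under 5 points in 61. The steadiest genes, apart from Rps12, were the zinc finger RNA-binding gene Zfr (89.1% to 90.5%), the F-box gene Fbxw2 (87.4% to 89.3%), the kinase gene Nlk (87.2% to 89.2%) and Ssu72, a phosphatase of RNA polymerase II (83.5% to 85.9%). The most variable were Unc5a, Csmd2, Wdr17, Tecpr2 and Hmbox1. In Csmd2 the wild types alone ran from 23.8% over 46.2% to 90.7%, and in Tecpr2 from 21.4% over 28.6% to 74.8%. In both genes wild type 3 lay among the mutants and wild type 1 was the lowest of all libraries.

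Over the mixed genes as a whole, mutants had relatively more last-exon reads, but not in mutant 5. The median share in the last exon was 75.8%, 78.3% and 80.9% in wild types 1 to 3, and 83.4%, 82.7%, 81.6%, 82.5% and 78.8% in mutants 1 to 5. Mutants 1 to 4 lay above all wild types, while mutant 5 lay between wild types 2 and 3. Wild type 1 had the lowest share of the 8 libraries in 560 mixed genes, and wild type 3 in 134. Over all 6001 genes the same medians ran from 93.6% to 94.4% in the wild types and from 94.1% to 95.1% in the mutants.

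**Figure D1:**
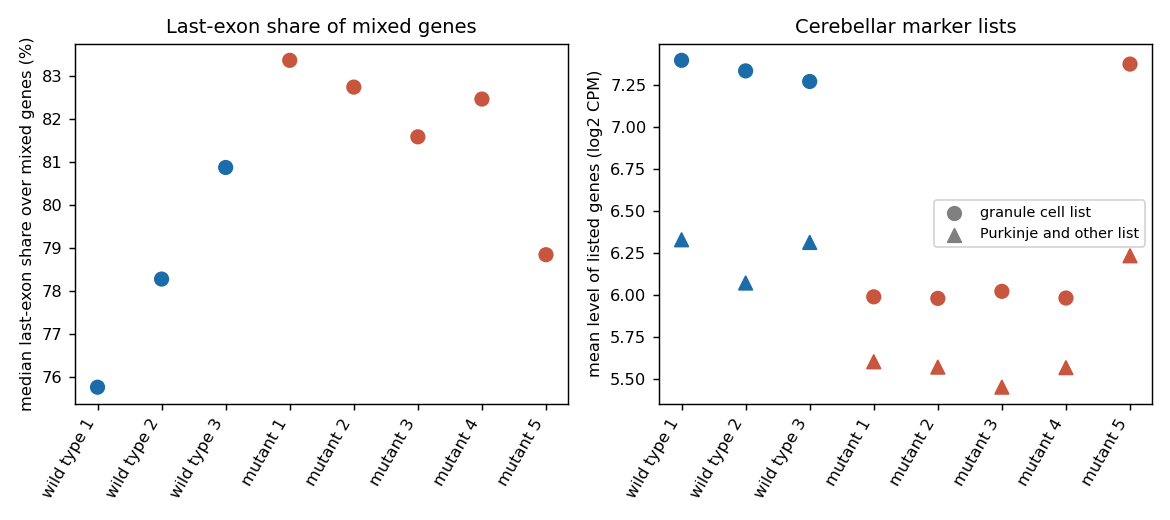
Left: median share of reads in the last exon (%) over the 1706 mixed genes in each library. Right: mean level (log2 CPM) of cerebellar granule cell genes (circles) and of Purkinje and other cerebellar genes (triangles); wild types are blue, mutants red. Mutants 1 to 4 have the highest shares, 81.6% to 83.4%, and the lowest cerebellar levels, while mutant 5 lies among the wild types on all 3 measures.

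Exon usage was tested per gene as the change in the ratio of last-exon to upstream reads, with edgeR's quasi-likelihood test over all 6001 genes and Benjamini-Hochberg adjustment. A positive log2 change means relatively more last-exon reads in mutants. The change had a median of 0.29 over the mixed genes, with 71.2% of them above 0, against a median of 0.17 and 62.2% over all genes tested. The genes ending mainly upstream had a median of 0.30, and those ending mainly in the last exon one of 0.09. At an unadjusted p under 0.05, 18.0% of the mainly upstream genes lay toward the last exon and 2.36% toward the upstream exon, against 6.46% and 4.31% of the genes ending mainly in the last exon. The mainly upstream genes thus had as large a median as the mixed genes, and the difference between these classes was not tested. Among the mixed genes, the median was 0.28 in genes with a wild-type share of 50% to below 60%, 0.34 from 60%, 0.28 from 70% and 0.28 from 80%. Since wild-type values chose the genes, other choices were set beside this one: choosing by the shares of all 8 libraries gave 1645 genes with a median of 0.23, while choosing by the 5 mutants gave 1589 genes with a median of 0.19.

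No mixed gene passed an adjusted p of 0.05 with edgeR in either direction, where 0.0% of all genes tested passed, and limma called 0 as well. At an unadjusted p under 0.05, 262 mixed genes (15.4%) lay toward the last exon, against 10.4% of all genes tested, and 47 (2.75%) lay toward the upstream exon, against 3.63%. When usage was set relative to the totals of upstream and last-exon reads in each library, the median change over all genes tested was 0.02 in place of 0.17. The counts of mixed genes were then 187 (11%, against 7.17% of all genes tested) and 73 (4.28%, against 5.92%). The genotypes did not overlap in 108 mixed genes toward the last exon (6.33%, against 4.23% of all genes tested) and in 28 toward the upstream exon (1.64%, against 1.65%). DESeq2 called 2 mixed genes toward the last exon, where it called 0.0667% of all genes tested, and 0 toward the upstream exon, where it called 0.0167%. The 2 genes were Unc5a and Kctd13.

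Mutant 5 bears directly on these counts. The mean log2 ratio of last-exon to upstream reads differed from that of the wild types by a median of 0.36 in mutants 1 to 4 and of 0.02 in mutant 5. Without mutant 5, edgeR called 84 mixed genes toward the last exon (4.92%, against 2.85% of all genes tested) and 15 toward the upstream exon (0.879%, against 1.08%). Of the 84 genes, mutant 5, which took no part in choosing them, lay above all 3 wild types in 12 (14.3%), against 20.6% of all mixed genes. The wild types did take part in choosing the genes of both directions and are also the reference for mutant 5. This is therefore no independent check. Of these 84, 16 are gamma protocadherins with repeated counts, described last, and without them the share is 12 of 68 (17.6%). Their median difference from wild type was 1.78 in mutants 1 to 4 and 0.08 in mutant 5. Of the 15 genes, mutant 5 lay below all wild types in 4 (26.7%, against 16.3% of all mixed genes), and the median differences were -1.62 and -0.20. Without wild type 3, 64 mixed genes were called toward the last exon (3.75%, against 2% of all genes tested) and 7 toward the upstream exon (0.41%, against 0.667%). With the granule cell level as a covariate, the median change over the mixed genes was 0.02, against 0.01 over all genes tested. At an unadjusted p under 0.05, this fit left 15 mixed genes toward the last exon (0.879%, against 1.6% of all genes tested) and 9 toward the upstream exon (0.528%, against 0.867%). Because mutants 1 to 4 all had low and mutant 5 had wild-type-like granule cell levels, that covariate fit compares mainly mutant 5 with the wild types.

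Kctd13 encodes an adaptor that brings substrates to the CUL3 ubiquitin ligase, and it was the mixed gene with the second smallest p. Its last exon held 55.4%, 43.3% and 76.4% of the reads in wild types 1 to 3, and 87.7%, 89.1%, 90.8%, 92.0% and 79.6% in mutants 1 to 5. All mutants lay above all wild types, with mutant 5 and wild type 3 the closest neighbours. The means were 58.3% ± 16.7 (SD, n = 3) and 87.8% ± 4.89 (SD, n = 5), a log2 change in usage of 2.31 with an SE of 0.48. The adjusted p was 0.28 with edgeR and 0.0302 with DESeq2. The upstream reads hardly differed, at 25, 38 and 47 in the wild types and 31 to 42 in the mutants, while the last-exon reads were 31, 29 and 152 in the wild types and 264, 343, 315, 428 and 121 in mutants 1 to 5. The Wilson 95% intervals of these shares had half-widths of 2.47 to 12.6 points; such intervals cover counting error only.

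Unc5a encodes a receptor for the axon guidance cue netrin. The wild types had 24%, 42.9% and 66.4% of their Unc5a reads in the last exon, and mutants 1 to 5 had 94.8%, 92.5%, 87.6%, 93.6% and 80.9%. The genotypes did not overlap, but wild type 1 rested on only 25 reads, and the half-widths of the Wilson intervals ran from 2.49 to 16.0 points. The means were 44.4% ± 21.2 (SD, n = 3) and 89.9% ± 5.74 (SD, n = 5). The log2 change in usage was 3.43 with an SE of 0.57, with an adjusted p of 0.20 by edgeR and 0.000334 by DESeq2. Unlike for Kctd13, both sides of the pair differed in opposite directions: the log2 change was -0.75 for the upstream reads (unadjusted p = 0.0188 with edgeR) and 2.46 for the last-exon reads (unadjusted p = 0.00502). With the granule cell covariate, which compares mainly mutant 5 with the wild types, the log2 change in usage was 2.02 for Unc5a and 1.28 for Kctd13. Neither passed after adjustment. Both genes had been called with mutant 5 included, so these values are no separate support.

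Other mixed genes with the largest difference toward the last exon, among those with 50 or more reads and no overlap, were Scrn3, Cacng4, Mrps31, Pigz, Gtf2ird1, Mtmr1 and Fbxl21. Cacng4 encodes an auxiliary subunit of AMPA-type glutamate receptors, and Mrps31 a protein of the small mitochondrial ribosomal subunit. For Cacng4 the wild types had 40.0%, 53.8% and 63.3%, and mutants 1 to 5 had 73.8%, 83.7%, 82.6%, 74.2% and 65.7%. Mutant 5 was the lowest mutant in Cacng4, and Scrn3, Pigz and Fbxl21 had the same order. In Fbxl21, which encodes an F-box protein, the wild types were tight at 57.0%, 59.3% and 60.4%, mutants 1 to 4 had 80.1%, 79.2%, 74.2% and 68.1%, and mutant 5, at 60.6%, was just above the highest wild type.

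Mrps31 did not follow that order. Its shares were 66.0%, 68.3% and 61.1% in the wild types and 83.6%, 78.7%, 77.8%, 78.4% and 82.8% in mutants 1 to 5, so that mutant 5 was the second highest. The means were 65.1% ± 3.66 (SD, n = 3) and 80.2% ± 2.73 (SD, n = 5), and the log2 change in usage was 1.10 with an SE of 0.36 (edgeR adjusted p = 0.28). Its upstream reads had a log2 change of -0.94 and its last-exon reads one of 0.16. With the granule cell covariate, which compares mainly mutant 5 with the wild types, its change was 1.35. The rule that named Mrps31 required mutant 5 to lie beyond all wild types, so this value is no separate support.

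Toward the upstream exon, the 10 genes named by the same rule were Megf11, Dennd6a, Zfp239, 2410089E03Rik, Rad18, Ccdc90b, Zfp654, Tardbp, Thap2 and Tbc1d8. Megf11 encodes a membrane protein with EGF-like repeats. It had 76.6%, 74.6% and 70.4% of its reads in the last exon in the wild types, and 51.1%, 44.1%, 39.5%, 42.8% and 64.7% in mutants 1 to 5. Mutants 1 to 4 lay far below every wild type, and mutant 5 lay between them and the wild types. The means were 73.9% ± 3.15 (SD, n = 3) and 48.4% ± 10 (SD, n = 5), the log2 change in usage was -1.58 with an SE of 0.36, and the adjusted p was 0.28 with edgeR and 0.10 with DESeq2.

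Dennd6a encodes an exchange factor for a Rab GTPase of membrane recycling. Its last-exon shares were 82.6%, 88.5% and 77.7% in the wild types and 60.4%, 58.8%, 60.1%, 62.8% and 74.1% in mutants 1 to 5. Upstream reads numbered 30, 31 and 59 in the wild types and 88, 117, 81, 119 and 48 in the mutants, so mutant 5 fell inside the wild-type range on that count. The log2 change in usage was -1.53 with an SE of 0.34 (edgeR adjusted p = 0.28), from a change of 1.16 in the upstream reads and of -0.33 in the last-exon reads. For Zfp239, a zinc finger gene, the upstream reads had a log2 change of 1.54, and the shares were 73.6% to 84.3% in the wild types and 53.9% to 68.0% in the mutants.

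Tardbp encodes TDP-43, an RNA-binding protein that regulates the ends of its own transcript. With 2448 reads on average it had the most reads of these 10 genes, and its Wilson half-widths were 1.43 to 2.02 points. The last exon held 78.9%, 83.2% and 77.2% in the wild types and 66.7%, 66.7%, 70.2%, 67.6% and 77.1% in mutants 1 to 5. Mutants 1 to 4 lay below the lowest wild type by more than the counting error, whereas mutant 5 differed from that wild type by less than its counting error. The means were 79.8% ± 3.09 (SD, n = 3) and 69.6% ± 4.41 (SD, n = 5), with a log2 change of -0.79, an SE of 0.26 and an adjusted p of 0.28 (edgeR). Its last-exon reads hardly differed (log2 change -0.02), and its upstream reads had a log2 change of 0.77.

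In Rad18, a ubiquitin ligase gene of DNA damage tolerance, and in Zfp654, Thap2 and 2410089E03Rik, mutant 5 lay among the other mutants. Rad18 had 69.7%, 58.8% and 57.4% in the wild types and 51.1%, 50.0%, 45.3%, 43.6% and 50.0% in mutants 1 to 5. Zfp654 had 83.8%, 87.3% and 88.5% in the wild types and 70.3%, 76.4%, 73.9%, 77.7% and 76.5% in the mutants. Its log2 change was -1.10 with an SE of 0.35 (edgeR adjusted p = 0.28) and -1.02 with the granule cell covariate. The covariate value rests mainly on mutant 5, which the naming rule had used, and is no separate support.

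**Figure D2:**
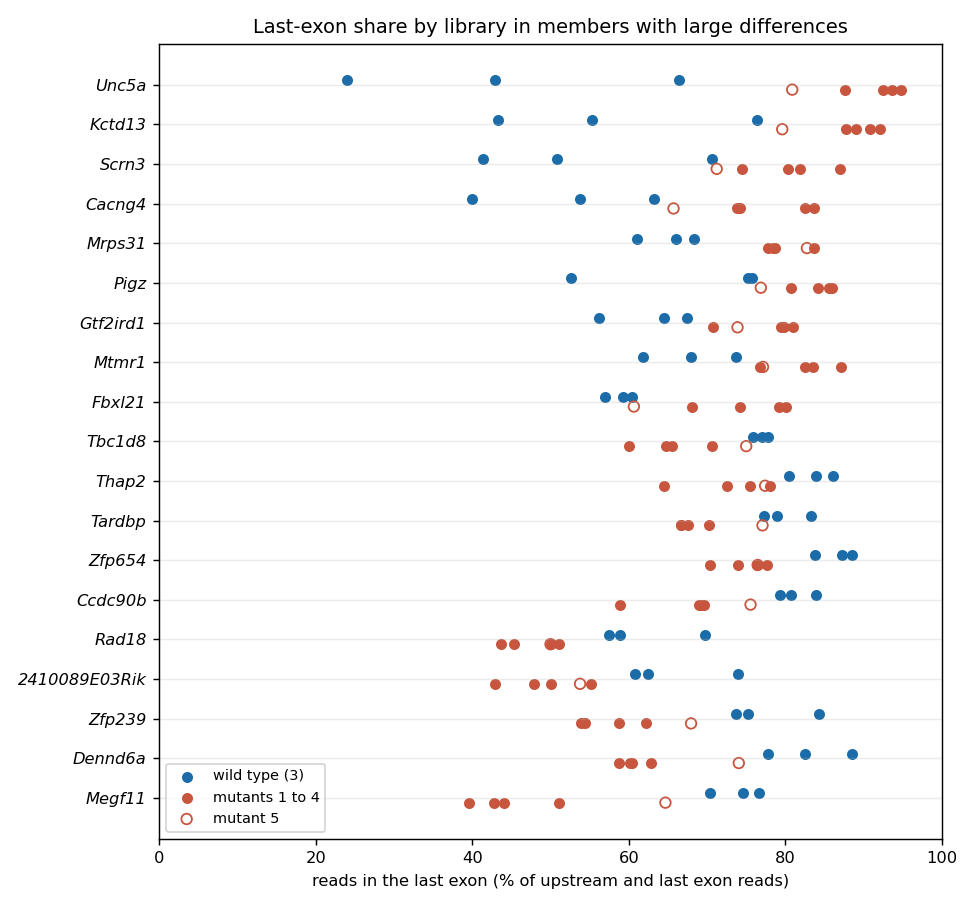
Share of reads in the last exon (%) in each library for 19 of the mixed genes with the largest difference between non-overlapping genotypes, sorted by the difference. Blue points are the 3 wild types, filled red points mutants 1 to 4 and the open red circle mutant 5. Mutant 5 is the mutant nearest to the wild types in genes such as Fbxl21 (60.6%) and Megf11 (64.7%), and lies among the other mutants in Mrps31 (82.8%) and Rad18 (50.0%).

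On which side of the pair the reads differed was looked at by testing each side alone, with TMM scaling over the table. Upstream reads had a median log2 change of -0.15 over the mixed genes, against -0.12 over all genes tested. At an unadjusted edgeR p under 0.05, 92 mixed genes were higher (5.39%, against 4.97% of all genes tested) and 204 lower (12%, against 8.9%). Last-exon reads had a median change of 0.11, against 0.03 over all genes tested. At that level 198 mixed genes were higher (11.6%, against 8.47%) and 62 lower (3.63%, against 6.02%). edgeR called 0 mixed genes on either side after adjustment, where it called 0.0333% of all genes tested as higher in upstream reads. Without mutant 5, 56 mixed genes were called higher in upstream reads (3.28%, against 2.78% of all genes tested) and 85 lower (4.98%, against 3.57%). In last-exon reads, 1 was then called higher (0.0586%, against 0.0333%) and 7 lower (0.41%, against 0.433%). Without wild type 3, 36 were called higher in upstream reads (2.11%, against 1.7%) and 24 lower (1.41%, against 0.867%), and in last-exon reads 3 were called higher (0.176%, against 0.05%) and 0 lower, where 0 of all genes tested were called.

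Of the 262 genes toward the last exon, 78 differed at that unadjusted level in the upstream reads only, 83 in the last-exon reads only, 15 in both and 86 in neither. Of the 47 genes toward the upstream exon, 38 differed in the upstream reads only, 3 in the last-exon reads only, 2 in both and 4 in neither. In the smaller group the unadjusted differences were thus mostly in upstream reads that were higher in mutants, and in the larger group on both sides. Upstream reads are by choice the smaller part in wild type. A switch between ends at a constant sum then gives them the larger log2 change. The genes were also picked by usage, so these counts cannot tell where a change arose. Mutant 5 was on the same side of the wild-type mean in 214 of the 262 and in 38 of the 47, but these counts include it in their choice.

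**Figure D3:**
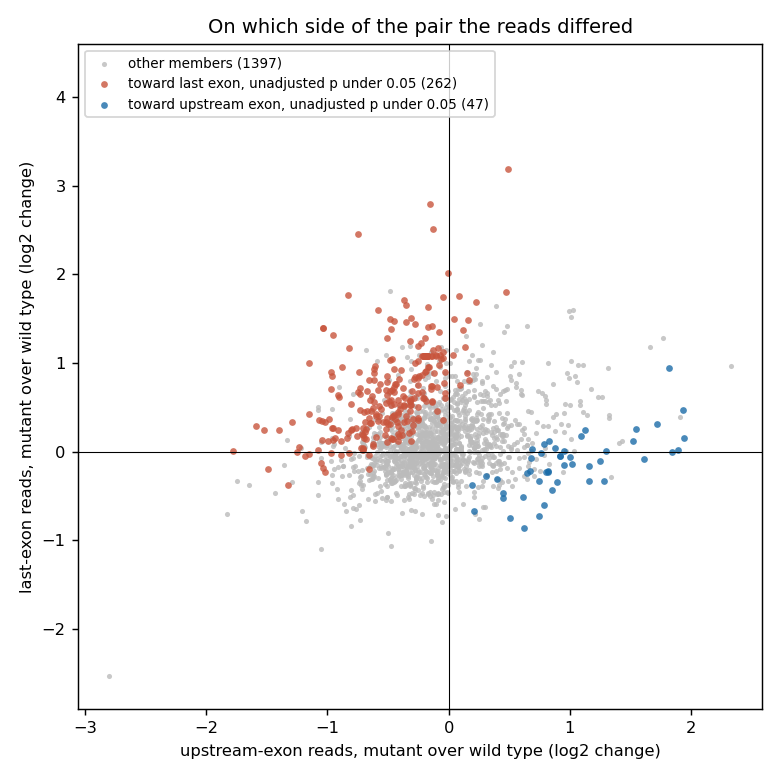
Each point is a mixed gene, with the log2 change (mutant over wild type) of its upstream-exon reads on the x axis and of its last-exon reads on the y axis. Red points are the 262 genes toward the last exon and blue points the 47 toward the upstream exon, both at an unadjusted p under 0.05; most blue points lie to the right of 0 and near 0 on the y axis, while red points spread to the left and upward.

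The summed level of both ends was not used in the choice, apart from the minimum of 20 reads. It had a median log2 change of 0.08 over the mixed genes, against 0.01 over all genes tested. At an unadjusted edgeR p under 0.05, 187 mixed genes were higher (11%, against 7.6%) and 84 lower (4.92%, against 7.47%). The genotypes did not overlap in 47 mixed genes that were higher (2.75%, against 2.28%) and in 37 that were lower (2.17%, against 2.5%). After adjustment, edgeR and DESeq2 called 0 mixed genes, with smallest adjusted p-values of 0.33 and 0.054. Without mutant 5, edgeR called 13 mixed genes higher (0.762%, against 0.333% of all genes tested) and 9 lower (0.528%, against 0.717%). Without wild type 3 it called 0 in either direction, with 421 higher (24.7%, against 17.9%) and 144 lower (8.44%, against 14.7%) at the unadjusted level.

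The 5 genes named as higher were Nprl3, Grm8, Cacna2d3, Slc7a1 and Cs, all without overlap. Nprl3 encodes a subunit of the complex that restrains mTORC1 when amino acids are low. Its summed level was 3.26, 3.63 and 3.72 log2 CPM in the wild types and 4.26, 4.33, 4.25, 4.43 and 4.10 in mutants 1 to 5, a log2 change of 0.73 with an SE of 0.15 (adjusted p = 0.33 with edgeR and 0.054 with DESeq2). Mutant 5 was the lowest mutant but still lay above the highest wild type. Slc7a1 encodes a transporter of cationic amino acids, and its level was 5.32, 5.69 and 5.81 log2 CPM in the wild types and 6.12 to 6.23 in all 5 mutants. Its last-exon share also separated the genotypes, at 80.8% to 83.1% in the wild types and 93.6%, 90.6%, 87.7%, 94.0% and 89.2% in mutants 1 to 5. For Grm8, a metabotropic glutamate receptor gene, Cacna2d3, a calcium channel subunit gene, and Cs, which encodes citrate synthase, the log2 changes were 0.72, 0.61 and 0.61.

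The 5 named as lower were Rprd1a, Ccdc74a, Fam32a, Zfp945 and Mapk14, with log2 changes of -0.45 to -0.59 and an adjusted p of 0.33 each (edgeR). Rprd1a encodes a protein that binds the tail of RNA polymerase II. Its level was 5.77, 5.52 and 5.20 log2 CPM in the wild types and 4.89, 5.06, 4.98, 4.92 and 5.07 in the mutants, while its last-exon share was 70.4% ± 7.29 (SD, n = 3) and 69.9% ± 5.82 (SD, n = 5). The level of this gene therefore separated the genotypes where the choice of exon did not. Of the 262 genes toward the last exon, 76 were also higher in summed level at the unadjusted level and 5 were lower. Over all mixed genes, 11% were higher and 4.92% lower. Last-exon reads are by choice the larger part of the sum in wild type, so usage and summed level share reads.

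Gabra6, a receptor subunit gene of cerebellar granule cells and a mixed gene itself, shows what a usage ratio rests on. Upstream and last-exon reads were 45 and 235 in wild type 1, 86 and 314 in wild type 2, 62 and 238 in wild type 3, and 43 and 210 in mutant 5. Mutants 1 and 2 had 2 last-exon reads each and no upstream read, and mutants 3 and 4 had no read of this gene. The shares in the 4 libraries with reads on both sides were 83.9%, 78.5%, 79.3% and 83.0%, and no usage can be given for the other 4. Etv1, a transcription factor gene also on the granule cell list, kept reads in all libraries. It had 70.3%, 81.0% and 82.5% in the wild types, 91.0%, 90.2%, 89.9% and 92.1% in mutants 1 to 4, and 75.9% in mutant 5. Its upstream reads were lower (log2 change -1.32, unadjusted p = 0.00333 with edgeR) and its last-exon reads less so (-0.38).

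Within the last exon, the split of reads between a proximal and a distal site was not used by the choice, though both sites lie inside the last-exon count. It was tested with edgeR in 1071 mixed genes among 7876 pairs. The distal site was relatively higher in mutants at an unadjusted p under 0.05 in 108 mixed genes (10.1%, against 8.67% of all pairs) and the proximal site in 51 (4.76%, against 4.25%). The genotypes did not overlap in 31 toward the distal site (2.89%, against 2.53%) and in 19 toward the proximal site (1.77%, against 1.63%). The median log2 change was 0.12, as over all pairs (0.12). edgeR called 0 of them after adjustment, and DESeq2 called 2 toward the distal site (0.19% of all pairs) and 1 toward the proximal site (0.0762%). Without mutant 5 the unadjusted counts were 229 distal (21.4%, against 18.7% of all pairs) and 105 proximal (9.8%, against 8.98%), and without wild type 3 they were 190 (17.7%, against 15.9%) and 111 (10.4%, against 8.49%), with 0 mixed genes called by edgeR in both fits. With the granule cell covariate they were 9 (0.84%, against 0.787%) and 11 (1.03%, against 0.736%), and the median was -0.03, against -0.02 over all pairs.

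Ccnyl1, which encodes a cyclin Y-like protein, had the smallest p of the 5 genes named toward the distal site. Its sites lie 335 bases apart, and the distal site held 25.8%, 17.6% and 50.9% in the wild types and 81.0%, 83.8%, 68.3%, 83.5% and 52.9% in mutants 1 to 5. Mutant 5 was just above wild type 3 there, and the log2 change was 2.82 with an SE of 0.62 (adjusted p = 0.38 with edgeR and 0.0374 with DESeq2). Robo2, a receptor gene of the axon repellent Slit, had 7.95%, 12.8% and 13.1% at its distal site in the wild types and 21.5%, 19.3%, 20.9%, 19.7% and 19.6% in mutants 1 to 5, over sites 2514 bases apart. In Robo2 mutant 5 lay among the other mutants, the log2 change was 0.94 with an SE of 0.26, and the adjusted p was 0.38 (edgeR). The sites of Dhx57, an RNA helicase gene, lie 33 bases apart, and its distal share was 75.5% to 85.2% in the wild types and 88.7% to 91.9% in the mutants. Mfap1a and Asap1 were the other genes named in this direction. DESeq2 also called Pde4b, a cAMP phosphodiesterase gene, toward the distal site and Zdhhc8, a palmitoyltransferase gene, toward the proximal site, each with an adjusted p of 0.0374, and in both the genotypes overlapped through mutant 5. These 2 genes are named after their values were seen. The distal share of Pde4b was 6.94%, 4.01% and 22.4% in the wild types and 49.9%, 46.7%, 32.1%, 58.1% and 15.8% in mutants 1 to 5, and that of Zdhhc8 was 91.3%, 96.6% and 78.0% against 60.5%, 64.1%, 68.8%, 54.1% and 78.4%.

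Toward the proximal site the 5 named genes were Nprl3, Epha5, Rbmx, Prrc2c and Stradb. In Nprl3 the distal site held 50.0%, 64.5% and 31.2% in the wild types and 20%, 9.09%, 9.48%, 17.0% and 30.2% in mutants 1 to 5, with mutant 5 next to wild type 3. Epha5, an ephrin receptor gene with sites 7313 bases apart, had 28.6%, 31.0% and 17.6% in the wild types and 6.93% to 13.6% in the mutants. The adjusted p with edgeR was 0.38 for both. Kctd13 was also listed: its distal site, 2267 bases from the proximal, held 10%, 23.1% and 4.61% in the wild types and 1.14%, 0.88%, 1.59%, 1.40% and 6.67% in mutants 1 to 5, so the genotypes overlapped through mutant 5. Tardbp had 51.9% to 62.6% at its distal site in the wild types and 56.2% to 69.0% in the mutants, also with overlap.

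The mixed genes were then grouped by function. Each count below is of genes at an unadjusted edgeR p under 0.05 toward the last exon and toward the upstream exon. None passed after adjustment with edgeR. At that level the shares were 15.4% and 2.75% of all mixed genes, and 10.4% and 3.63% of all genes tested. The median log2 change of a list stands beside the 0.29 of all mixed genes, and a count above 0 beside the 71.2% of all mixed genes that lay there.

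Of the cleavage and polyadenylation machinery, 13 genes were mixed, with 3 toward the last exon, 0 toward the upstream exon and a median of -0.01. The 3 were Fip1l1, Sympk and Scaf8. Fip1l1, a subunit of the poly(A) signal recognition complex, had 72.6%, 73.3% and 89.2% in the wild types, 94.9%, 92.9%, 90.4% and 92.9% in mutants 1 to 4 and 76.8% in mutant 5, so the genotypes overlapped. Sympk encodes symplekin, the scaffold that also binds the CSTF complex, and its shares were 54.7%, 51.5% and 52.5% in the wild types and 67.3%, 69.2%, 62.4%, 58.6% and 57.3% in mutants 1 to 5. The genotypes did not overlap in Sympk, with a log2 change of 0.61, an SE of 0.24 and an adjusted p of 0.30 (edgeR). Cpsf6, of the cleavage factor that binds UGUA, had 75% to 78.6% in the wild types and 75.5% to 78.2% in the mutants.

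Of the 17 mixed genes for neuronal RNA-binding and splicing proteins, 2 (Fmr1 among them) lay toward the last exon and 1 (Tardbp) toward the upstream exon, with a median of -0.07. Celf2, with 10322 reads on average, had 69.9% to 75.5% in the wild types and 66.2% to 72.4% in the mutants. Of 14 mixed genes known for alternative last exons or truncating upstream ends, 2 (Insr among them) lay toward the last exon and 0 toward the upstream exon, with a median of 0.10. Ntrk2, whose upstream end gives a BDNF receptor without its kinase domain, had 45.6%, 58.0% and 56.9% in the wild types and 58.1%, 61.8%, 59.8%, 54.5% and 63.3% in the mutants (unadjusted p = 0.159 with edgeR).

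Among genes of the synapse, 7 glutamate receptor and scaffold genes had 2 toward the last exon (Grik3 and Camk2d), 1 toward the upstream exon (Baiap2) and a median of 0.67. Camk2d, a calcium-dependent kinase subunit gene, had 69.2%, 78.7% and 85.1% in the wild types, 90.8%, 90.8%, 86.1% and 90.9% in mutants 1 to 4 and 78.3% in mutant 5. Baiap2, a scaffold gene of the postsynaptic actin network, ran the other way: 71.4%, 72.6% and 52.1% in the wild types, 31.3%, 36.9%, 56.9% and 32.7% in mutants 1 to 4, and 70.3% in mutant 5. In both genes mutant 5 lay inside the wild-type range. Of 9 vesicle and release genes, 2 (Snap25 among them) lay toward the last exon and 0 toward the upstream exon, with a median of 0.32. Snap25, a SNARE of the plasma membrane, had 80.3%, 73.5% and 85.4% in the wild types and 90.4%, 88.7%, 84.6%, 89.7% and 81.4% in mutants 1 to 5. The 3 mixed GABA genes had 0 in either direction and a median of -0.01, and Gabra2 lay at 74.5% ± 3.09 (SD, n = 3) and 74.3% ± 2.59 (SD, n = 5).

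Of 11 ion channel genes, 1 (Kcnh3) lay toward the last exon, 0 toward the upstream exon and 10 above 0, with a median of 0.32. Kcnd2, a gene of A-type potassium channels, varied widely: 66.1%, 83.9% and 96.3% in the wild types and 97.1%, 96.7%, 92.7%, 96.8% and 83.1% in mutants 1 to 5. Of 16 axon guidance and adhesion genes, 14 were above 0, with a median of 0.48, and 2 (Unc5a and Nrp2) were counted toward the last exon and 0 toward the upstream exon. Nrp2, a semaphorin co-receptor gene, had 40.9%, 42.3% and 68.3% in the wild types, 76.2%, 73.4%, 67.7% and 75.7% in mutants 1 to 4 and 54.7% in mutant 5. Of 12 cytoskeletal genes, all 12 were above 0, with a median of 0.41, but only 1 (Cdc42bpb) was counted toward the last exon and 0 toward the upstream exon. Kif5c, a kinesin motor gene, had 72.0%, 73.2% and 84.0% in the wild types and 88.4%, 85.1%, 77.4%, 87.4% and 70.2% in mutants 1 to 5, so mutant 5 was the lowest of all libraries.

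**Figure D4:**
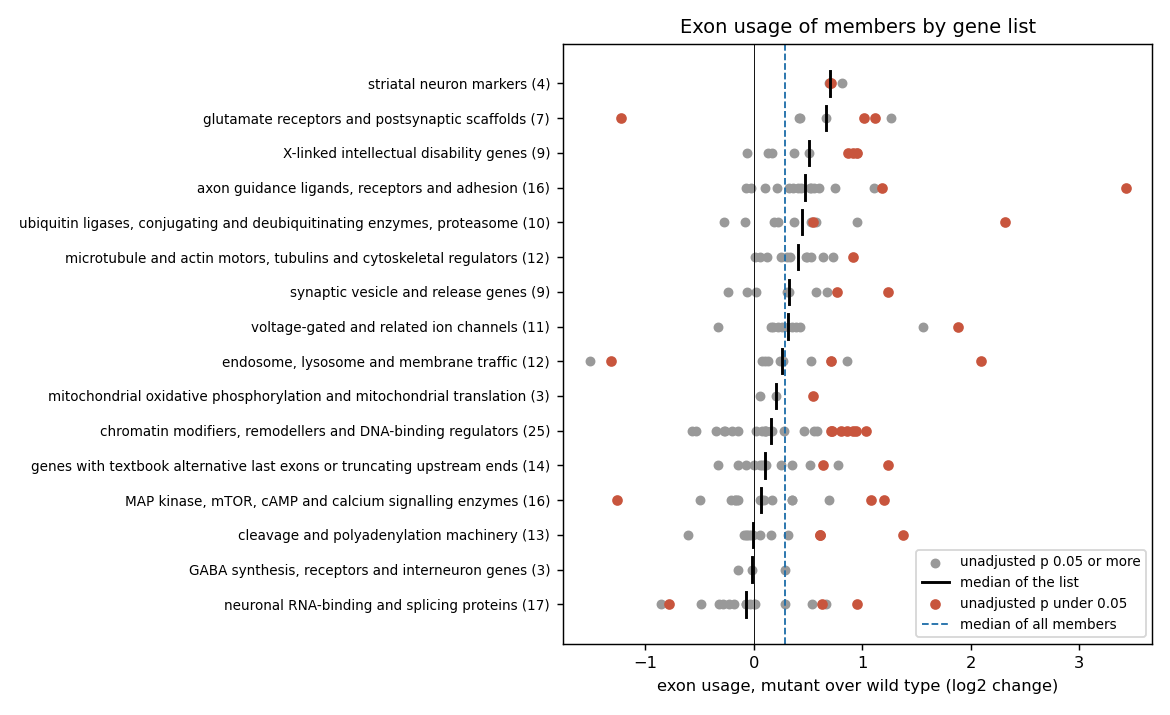
Log2 change in exon usage (mutant over wild type; above 0 is toward the last exon) of the mixed genes in each functional list with 3 or more of them, the number in brackets. Red points have an unadjusted p under 0.05, black bars are list medians and the dashed line is the median of all mixed genes, 0.29. The 12 cytoskeletal genes all lie above 0, as do 71.2% of all mixed genes, and the chromatin list holds 7 red points, all on the right.

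Chromatin modifiers and DNA-binding regulators gave the longest list, 25 mixed genes, with 7 toward the last exon (Kdm2a, Setd5, Setdb1, Nsd1, Smarcc2, Zmynd8 and Phf8), 0 toward the upstream exon and a median of 0.16. Setd5, which encodes a SET-domain protein, had 62.4%, 75% and 79.5% in the wild types and 84.7%, 84.6%, 81.4%, 82.7% and 78.5% in mutants 1 to 5. Phf8, an X-linked histone demethylase gene, had 67.0%, 65.4% and 74.6% in the wild types and 82.3%, 83.3%, 79.4%, 80.4% and 78.6% in the mutants, without overlap (log2 change 0.91, SE 0.26, edgeR adjusted p = 0.28). Nsd3, a histone methyltransferase gene, had 57.1% to 58.7% in the wild types and 55.4% to 61.0% in the mutants. Of 9 genes linked to X-linked intellectual disability, 3 (Fmr1, Phf8 and Ftsj1) lay toward the last exon and 0 toward the upstream exon, with a median of 0.51.

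Of 10 ubiquitin and proteasome genes, 2 (Kctd13 and Usp34) lay toward the last exon and 0 toward the upstream exon, with a median of 0.45. Of 16 signalling enzyme genes, 2 (Nprl3 and Ppp1r12b) lay toward the last exon and 1 (Araf) toward the upstream exon, with a median of 0.06. Of 12 membrane traffic genes, 2 (Rab1a and Copb1) lay toward the last exon and 1 (Rab11fip3) toward the upstream exon, with a median of 0.26. Of 3 genes of mitochondrial respiration and translation, 1 (Ndufs1, of complex I) lay toward the last exon and 0 toward the upstream exon, with a median of 0.20. Vps41, of endosome fusion, was steady at 82.8% to 84.6% in the wild types and 83.4% to 85.6% in the mutants.

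Few markers of each cell type were tested, so the counts of mixed genes among them are small. Over all genes tested, 1706 of 6001 were mixed. Astrocyte, choroid plexus and forebrain excitatory neuron lists held 0 of 8, 3 and 10 tested. The oligodendrocyte, microglia and endothelial lists held 1 each (Enpp6, P2ry12 and Cdh5), of 13, 3 and 5 tested. The granule cell list held 2 of 5, the Purkinje and other cerebellar list 2 of 11, and the striatal list 4 of 12. The endothelial adhesion gene Cdh5 had 50.0%, 74.0% and 90.3% in the wild types and 94.0%, 97.4%, 87.9%, 93.5% and 78.0% in the mutants, and was counted toward the last exon. Of 4 striatal genes, all above 0 with a median of 0.71, 2 (Rasgrp2 and Gnal) were counted toward the last exon and 0 toward the upstream exon. Gnal, the G protein subunit of striatal dopamine receptors, had 89.5%, 89.8% and 87.7% in the wild types and 92.6%, 93.1%, 93.0%, 94.1% and 91.9% in mutants 1 to 5, without overlap (log2 change 0.71, SE 0.23, edgeR adjusted p = 0.28). The striatal marker list, with 17 of 23 genes measured, was at 5.91 to 6.14 log2 CPM in the wild types, 6.29 to 6.47 in mutants 1 to 4 and 6.00 in mutant 5, and its part in these shares was not tested.

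Finally, 16 of the mixed genes are gamma protocadherins (such as Pcdhga10 and Pcdhga3) that share last exons, and they carry only 2 distinct sets of counts. All 16 were among the 262 genes toward the last exon, so that 246 remain when they are left out. They are uncertain as separate genes.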

How the data were processed

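Transcript ends of total brain from 3 wild-type and 5 Cstf2 D50A mice were read with a 3′ end kit (QuantSeq REV, per the labels' protocols). The authors deposited raw counts per site and library in 2 tables, per the file headers. FastQC 0.11.3, STAR 2.5, HTSeq 0.6.0 and build mm9 are listed, per the submitters' processing notes, with no roles stated. The sources used here do not give how sites were picked or whether strand was used, so overlapping genes and close copies are uncertain. All value columns were matched to samples by library code, and 0 were unused.

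Counts were used as deposited. A gene was tested where the summed reads of both ends averaged 20 or more per library. Each end also had to hold 10 or more reads over all libraries together. All 1706 mixed genes met these limits. Usage was tested with edgeR 4.0.16 (R 4.3.3) in quasi-likelihood fits over all genes of the table, where the tested term was genotype by site and each library was a block. Levels were tested with TMM scaling. SEs were obtained by dividing the log2 change by the root of F. Benjamini-Hochberg adjustment was used with a threshold of 0.05, and 0.5 was added to counts for log ratios. DESeq2 1.42.0, limma 3.58.1, other filters, choices of genes, scalings, each library left out and a granule cell covariate were alternatives; those scaled on site totals, DESeq2 with the covariate, and the covariate within the last exon were chosen after seeing the data. The scripts were tested on simulated data. Labels describe separate animals; replicate numbers only name them.

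The mixed genes, the lists and the alternatives were chosen with earlier results of these data known. Genes were named by rule: the 5 with the most reads, 3 on each side of each share limit, those called by edgeR or DESeq2, per direction the 10 with the largest difference without overlap and 50 or more reads, the 5 smallest p per direction for level and within-exon usage, up to 4 per list by reads, the 5 with the largest and smallest SD, and Kctd13 and Unc5a. Some of the genes so named are not reported here. List members at an unadjusted p under 0.05 were named after their values were seen. Gene lengths come from RefSeq (GRCm38.p6), matched by symbol; no positions are printed from it. Depth sets the counting error: Wilson 95% intervals are given for single shares.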

Additional observations from a re-analysis of the deposited data

Results flagged for a closer look

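Of 117 named mixed genes, 9 had 1 mutant library far from the other mutants in its last-exon share (a gap to the nearest other mutant of over 0.710 of the whole range), and in 7 of the 9 that library was mutant 5. Chance gives about 1 in 20 for a single gene with independent values. The named genes share the same libraries, and some were picked by rules that use mutant shares. That rate therefore cannot be set against the 9 or the 7. Mutant 5 lay at 70.8% in Ccnyl1 (the others at 89.1% to 93.2%), 74.1% in Dennd6a (58.8% to 62.8%), 76.8% in Fip1l1 (90.4% to 94.9%), 84.4% in Ncam1 (90.5% to 92.3%), 62.7% in Tpm3 (71.7% to 75.1%), 75.9% in Etv1 (89.9% to 92.1%) and 80.0% in Rasgrp2 (87.9% to 90.5%). In Ttyh1, mutant 3 lay at 86.2% (the others at 87.8% to 88.4%), and in Nlk, mutant 1 lay at 87.2% (88.7% to 89.2%).

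Mutant 5 also stood apart in the mean level of 3 marker lists. It was at 7.37 log2 CPM for cerebellar granule cells (the other mutants at 5.98 to 6.02), at 6.23 for Purkinje and other cerebellar markers (5.45 to 5.60), and at 6.75 for forebrain excitatory neurons (6.96 to 7.01).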

How the results depend on the processing

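The median usage change of the mixed genes stayed above 0 under every alternative run, though barely so with the granule cell covariate. It was 0.14 when set relative to site totals, against 0.02 over all genes tested. With the covariate it was 0.0236 in edgeR, against 0.01 over all genes tested, and 0.0228 in DESeq2. In that edgeR fit 52.3% of the mixed genes lay above 0. At an unadjusted p under 0.05, 262 of 1706 genes lay toward the last exon and 47 toward the upstream exon. These counts were 15 and 9 with the covariate in edgeR and 6 and 4 with it in DESeq2. A share window of 60% to below 85% gave 161 and 32, but from only 1000 genes. The upstream count was 73 both relative to site totals, of the 1706 genes, and in the 1589 genes chosen by the 5 mutants. DESeq2 called 2 genes toward the last exon, and within the last exon 2 distal and 1 proximal; with the covariate, within-exon counts were 9 distal and 11 proximal and the median was -0.0269. For the last, the cause was not tested.

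Leaving out 1 library at a time gave 105 to 448 genes toward the last exon and 13 to 76 toward the upstream exon at the unadjusted level, and 0 to 84 and 0 to 15 calls. It gave 84 to 421 higher and 31 to 153 lower in summed level (0 to 13 and 0 to 9 calls), 47 to 139 higher and 77 to 325 lower in upstream reads (0 to 56 and 0 to 85 calls), 86 to 458 higher and 22 to 123 lower in last-exon reads (0 to 3 and 0 to 7 calls), and 29 to 229 distal and 17 to 111 proximal within the last exon (0 calls). Leaving out mutant 5 or wild type 3 gave all calls among these. Of the 117 named genes, 56 changed sign in at least 1 of 15 settings, 40 of them with the covariate. Of the 20 named for share difference or a call, 0 did. Those 20 had no overlap of the genotypes, so leaving out 1 library could hardly change their sign. This 0 is thus largely set by the choice of genes. No paired analysis was possible because the replicate numbers follow accession order and pair no animals. With 3 wild types whose shares vary by a median SD of 5.26 points, and many genes with under 100 reads, smaller differences are not detectable here.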

Other observations

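The deposited table of upstream and last-exon counts runs through the alphabet 3 times, in blocks of 113, 5638 and 396 genes, and what the blocks mean is not stated by the labels or the file header. The first block holds 49 mixed genes, all with a usage change toward the upstream exon, 42 of them at an unadjusted p under 0.05 (edgeR). The last block holds 261 mixed genes, all toward the last exon, 222 of them at that level. The middle block holds 1396, of which 954 lay toward the last exon and 442 toward the upstream exon, with 40 and 5 at that level. The order of the table was not used in any test.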
